A study of Mus musculus with 8 samples.

Results

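In adult mouse testis, 8 genes of the complement system were followed: the C1r and C1s protease genes C1ra, C1rb and C1s1, the C1q chain genes C1qa, C1qb and C1qc, and the thioester protein genes C3 and C4b. They are 8 of the 24988 genes in the deposited table, and were taken by gene symbol because C1rb differed strongly between the groups, so the values of C1rb are a description and carry no test. The other 7 members were taken by name with results of these data in view, and their calls are descriptive too. RNA sequencing gave 4 libraries of testis labelled with the genotype Kpna2-/-, which lack Kpna2 according to that label, and 4 of testis labelled wild type. The targeted gene codes for one of the importin alpha adaptors, which bring proteins into the nucleus. The labels name no strain, no treatment and no age beyond adult. Nothing in them tells separate animals from repeat libraries of 1 animal, and the p-values describe the spread among libraries alone.

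Complement is a cascade of plasma proteins that marks surfaces for uptake and opens pores in membranes. In the classical pathway C1q, built from the C1qa, C1qb and C1qc chains and made largely by macrophages, carries the proteases C1r and C1s. Bound C1q lets C1r cleave itself and then C1s, C1s cuts C4 and C2, and the resulting enzyme cuts C3, where the classical, lectin and alternative pathways meet. The mouse genome has duplicated copies of both protease genes, C1ra beside C1rb and C1s1 beside C1s2, and of C4, C4b beside C4a. C3, C4 and the C1 proteases are made mainly in liver, and also by fibroblasts and other stromal cells.

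The 5 genes C1rl, C1ra, C1s1, C1rb and C1s2 lie within 143.0 kb of mouse chromosome 6 in GRCm38. The promoters of C1ra (chr6:124512371-124512670, plus strand) and C1rb (chr6:124570180-124570479, plus strand) are shown because these neighbouring copies differed in opposite directions between the groups. They come from RefSeq on GRCm38.p6 and cover 250 bases before and 50 after the annotated start, 5′ to 3′. Capitals mark runs of at least 12 bases that occur identically in both sequences.
C1ra: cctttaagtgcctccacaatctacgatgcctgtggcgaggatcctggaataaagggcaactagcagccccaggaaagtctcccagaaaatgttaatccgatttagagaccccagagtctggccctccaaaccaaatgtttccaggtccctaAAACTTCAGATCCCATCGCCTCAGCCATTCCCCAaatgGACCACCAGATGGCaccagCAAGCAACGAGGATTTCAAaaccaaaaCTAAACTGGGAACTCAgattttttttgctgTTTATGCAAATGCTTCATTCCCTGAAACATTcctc
C1rb: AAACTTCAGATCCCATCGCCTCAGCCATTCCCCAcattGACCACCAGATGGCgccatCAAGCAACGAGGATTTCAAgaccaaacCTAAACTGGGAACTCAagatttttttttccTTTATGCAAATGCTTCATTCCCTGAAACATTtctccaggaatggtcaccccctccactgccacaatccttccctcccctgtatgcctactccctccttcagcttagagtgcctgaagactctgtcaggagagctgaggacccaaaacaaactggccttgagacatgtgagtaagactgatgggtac
The capitals cover 114 bases of each promoter, and the longest shared run has 34 bases. A local alignment joined positions 152 to 300 of the C1ra sequence with positions 1 to 149 of the C1rb sequence, with 139 of 148 aligned bases identical, or 93.9%. By the RefSeq start, the aligned block spans the start in C1ra and lies wholly upstream of it in C1rb. The gene starts in GENCODE M21 lie earlier, at 124512405 for C1ra and 124570294 for C1rb. By those, the block lies wholly downstream of the start in C1ra and spans it in C1rb, so its place relative to the start depends on the annotation. A set of 4 motifs was searched on both strands. The octamer motif ATGCAAAT, which lies in capitals in both sequences, was in 1.74% of 32851 RefSeq promoters of this length. The STAT-type motif TTCNNNGAA was also present in both and in 8.3% of all promoters. Among the members with a promoter entry, neither motif occurred outside C1ra and C1rb, while TATAAA (13.6% of promoters) occurred only in C3 and CCAAT (37.4%) in none. Promoter entries were found for 6 of the 8 members, not for C1qa or C4b.

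The libraries held 31133443 to 37797812 reads assigned to genes, and values are CPM, reads scaled by the authors. Kpna2 went against its label: it stood at 15.3, 20.2, 19.4 and 21.7 CPM in the libraries labelled knockout, against 14.0, 15.1, 14.0 and 12.4 CPM in those labelled wild type. Its mean was 38.1% higher under the knockout label (limma adjusted p = 0.0079), so each direction here is that of the label. Of all 22027 genes tested by limma on log2(CPM + 0.5), 16.9% were called at an adjusted p threshold of 0.05, 8.62% higher and 8.32% lower, and the 4 values of each group did not overlap for 20.9%. All 8 members passed the filter on low values, with a mean over the 8 libraries of at least 4.32 CPM. The 8 germ cell markers were abundant in every library, summing to 15360 to 20133 CPM under the knockout label and 18019 to 19055 CPM under the wild-type label, none of them called. Of 8 epididymis markers, the defining Lcn5, Lcn8, Lcn9, Crisp1, Adam7 and Defb20 had no row in the table. One library stood apart around the C1r genes, replicate 3 of those labelled wild type. The differences of C1ra, C1rb and C1s1 are also given without it. In whole tissue, fewer cells of a type and less RNA per cell cannot be told apart.

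**Figure D1:**
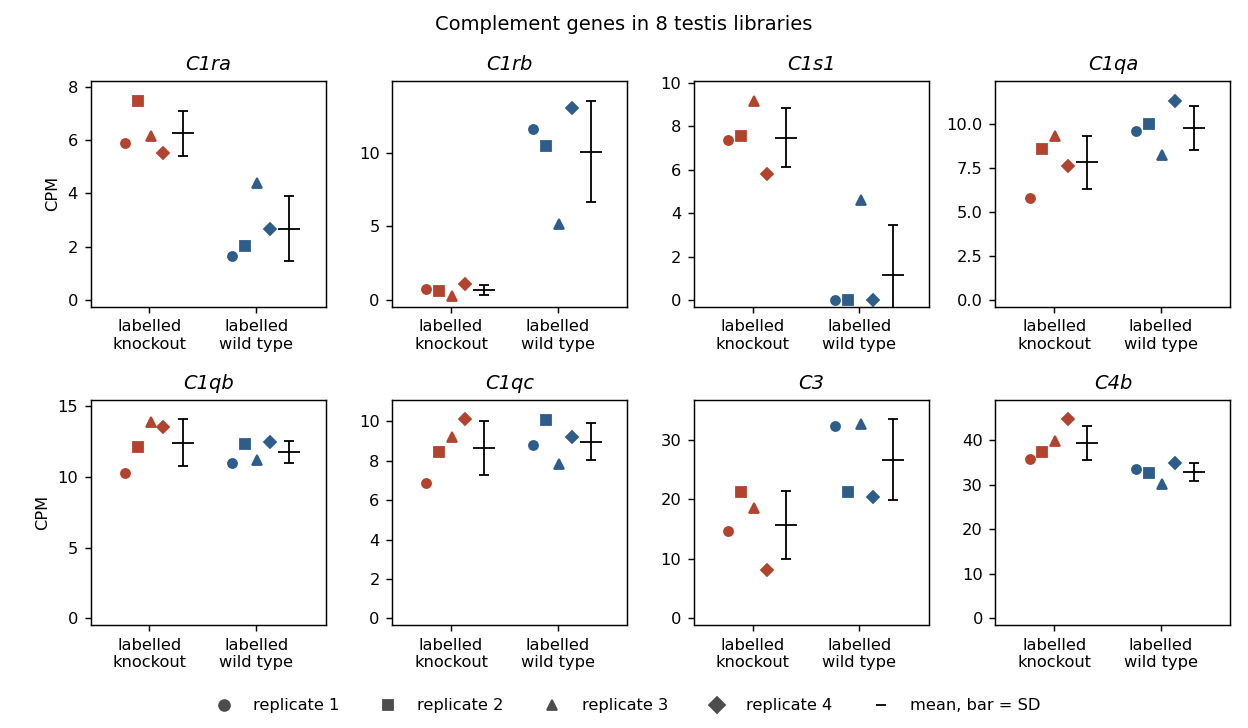
CPM of the 8 complement members in each library, libraries labelled knockout in red on the left and labelled wild type in blue on the right, with the mean and SD of 4 libraries in black (the SD bar of C1s1 under the wild-type label is truncated at the lower edge of its panel). The groups do not overlap for C1ra, C1rb, C1s1 and C4b, and wild-type replicate 3 (triangle) lies between the groups for the first 3 of these.

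In the C1r and C1s genes the groups were far apart, and the 3 members did not move the same way. C1rb was lower, and C1ra and C1s1 were higher, in the libraries labelled knockout. C1rb (ENSMUSG00000098470; chromosome 6, 124570294 to 124581171, plus strand) encodes a copy of the C1r protease. It stood at 0.759, 0.629, 0.290 and 1.11 CPM in the libraries labelled knockout, against 11.6, 10.5, 5.16 and 13.1 CPM in those labelled wild type. The highest value under the knockout label was below the lowest under the wild-type label, that of replicate 3. The means were 0.696 ± 0.337 CPM under the knockout label and 10.1 ± 3.44 CPM under the wild-type label (SD, n = 4 each), 14.5-fold lower under the knockout label and a log2 difference of -3.12 (SE 0.25). Behind these lay 26, 22, 9 and 38 reads in the libraries labelled knockout and 392, 362, 171 and 498 reads in those labelled wild type, so the low group rests on few reads.

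C1ra (ENSMUSG00000055172; chromosome 6, 124512405 to 124523443, plus strand) encodes the other C1r copy. Its values were 5.90, 7.47, 6.13 and 5.50 CPM in the libraries labelled knockout, against 1.66, 2.02, 4.38 and 2.65 CPM in those labelled wild type. Every library labelled knockout was above every one labelled wild type, of which replicate 3 was highest. The mean was 6.25 ± 0.852 CPM under the knockout label and 2.68 ± 1.20 CPM under the wild-type label (SD, n = 4 each), 2.33-fold higher. C1ra rose by a log2 difference of 1.15 (SE 0.20, limma adjusted p = 0.00136), and was called in all 18 alternative analyses.

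C1s1 (ENSMUSG00000038521; chromosome 6, 124530345 to 124542359, minus strand) encodes C1s, the protease that C1r activates. It was present in all 4 libraries labelled knockout, at 7.39, 7.55, 9.17 and 5.82 CPM, against 0, 0, 4.62 and 0 CPM in those labelled wild type. The 153 reads of wild-type replicate 3 were the whole of the wild-type signal, where the libraries labelled knockout held 200 to 284 reads each. The rise was 3.14 on the log2 scale (SE 0.57, limma adjusted p = 0.00174). edgeR on recovered reads called it too (adjusted p = 0.0401), and DESeq2 did not (adjusted p = 0.503). Without wild-type replicate 3 the other 3 wild-type libraries had no read, and the mean under the knockout label was at least 88.3-fold higher than a floor of 3 reads per library, which is 0.0848 CPM on average over those 3 libraries and covers counting error only.

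**Figure D2:**
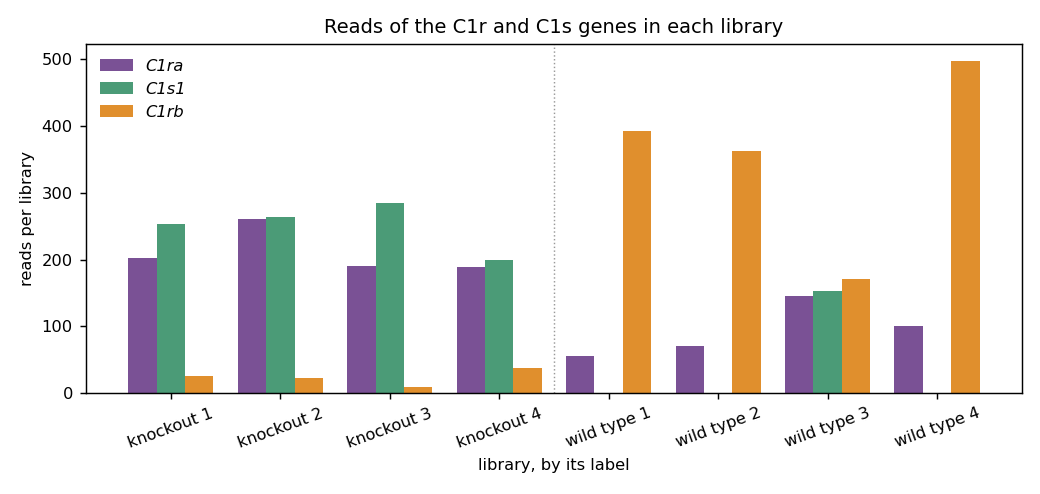
Reads assigned to C1ra, C1s1 and C1rb (bars from 0) in each library, named by its label and replicate number. C1ra and C1s1 hold most of the reads in the 4 libraries labelled knockout, C1rb holds most in wild-type replicates 1, 2 and 4, and wild-type replicate 3 has 145, 153 and 171 reads of the 3 genes.

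The balance between the C1r copies was reversed between the groups. C1rb took 11.4% (7.59 to 16.3), 7.77% (4.94 to 11.5), 4.52% (2.09 to 8.41) and 16.7% (12.1 to 22.3) of the reads of both copies in the libraries labelled knockout. In the libraries labelled wild type it took 87.5% (84.1 to 90.4), 83.8% (80.0 to 87.2), 54.1% (48.4 to 59.7) and 83.1% (79.9 to 86.1), with exact binomial 95% intervals that cover counting error only. Wild-type replicate 3 thus had the copies in near equal number, and its interval overlapped that of no other library. The copies together gave 6.95 ± 0.773 CPM under the knockout label and 12.8 ± 2.54 CPM under the wild-type label, 1.84-fold lower. The summed CPM of C1ra, C1rb and C1s1 overlapped between the groups, at 14.0, 15.6, 15.6 and 12.4 CPM in the libraries labelled knockout and 13.3, 12.5, 14.2 and 15.7 CPM in those labelled wild type.

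Reads of these copies are hard to assign. The longest transcripts of C1rb and C1ra were 98.1% identical over 2427 aligned bases, and 59.2% of all 50-base stretches of C1rb also occurred in C1ra, as did 42.7% of its 100-base stretches. For C1s1, 24.3% of 50-base stretches occurred in C1s2, and for C4b 35.2% occurred in C4a. The 3 C1q chains and C3 shared no 50-base stretch with another gene. The handling of reads with more than 1 match is not stated, and the levels of C1ra, C1rb, C1s1 and C4b are uncertain by an amount that was not measured.

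The remaining C1r and C1s relatives in the same stretch differed less. C1rl, which encodes a C1r-like protease, averaged 2.12 ± 0.346 CPM under the knockout label and 3.13 ± 0.501 CPM in the group labelled wild type, and fell by 0.47 on the log2 scale (limma adjusted p = 0.0334). That call was lost in 5 of 18 alternatives: with the replicate number as a block, and without knockout replicate 1 or 4 or wild-type replicate 1 or 4. C1s2, the copy of C1s1, stood at 0.831 ± 0.0598 CPM under the knockout label and 0.955 ± 0.208 CPM in the group labelled wild type, and was not called (log2 difference -0.12, SE 0.14, limma adjusted p = 0.615).

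Wild-type replicate 3 stood apart in other genes near C1rb as well. Within 1 Mb on either side of C1rb, 59 other genes were tested and 15 were called, or 25.4%, 10 higher and 5 lower, beside 16.9% of all genes. Of these 59 tested genes, 4 were called with a log2 difference of at least 1 in size (C1ra, C1s1, Pianp and Plekhg6). Of all 22027 genes tested, 398 were called with such a difference, or 1.81%. C1ra and C1s1 are members chosen with results in view, so nothing is read from this comparison. Pianp, 415.5 kb from C1rb, stood at 0.134 ± 0.0133 CPM under the knockout label and 3.58 ± 1.24 CPM under the wild-type label, where replicate 3 was lowest at 1.81 CPM. Plekhg6, 781.5 kb away, stood at 0.529 ± 0.126 CPM under the knockout label and 2.31 ± 0.944 CPM under the wild-type label, where replicate 3 was again lowest at 1.03 CPM. Ltbr, a lymphotoxin receptor gene, had 10.1, 11.5, 11.6 and 11.4 CPM in the libraries labelled knockout, against 6.56, 5.95, 10.1 and 6.47 CPM in those labelled wild type.

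In each of these 3 genes the wild-type library nearest the mean under the knockout label, on the log2 scale, was replicate 3. The same held for 11 of the 15 called neighbours, or 73.3%: C1rl, C1ra, C1s1, Lpcat3, Pianp, Nop2, Iffo1, Ltbr, Tnfrsf1a, Plekhg6 and Gm26728. The other 4 were Tpi1, Gpr162, Tuba3a and Vwf. With C1rl, C1ra and C1s1 left out, it held for 8 of 12 called neighbours, or 66.7%. Over all 3731 called genes, replicate 3 was the nearest wild-type library in 26.8%, replicate 1 in 24.7%, replicate 2 in 22.9% and replicate 4 in 25.6%. This count was made after the values were seen and is a description. Without wild-type replicate 3, C1rb was 16.8-fold lower and C1ra 2.96-fold higher under the knockout label.

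**Figure D3:**
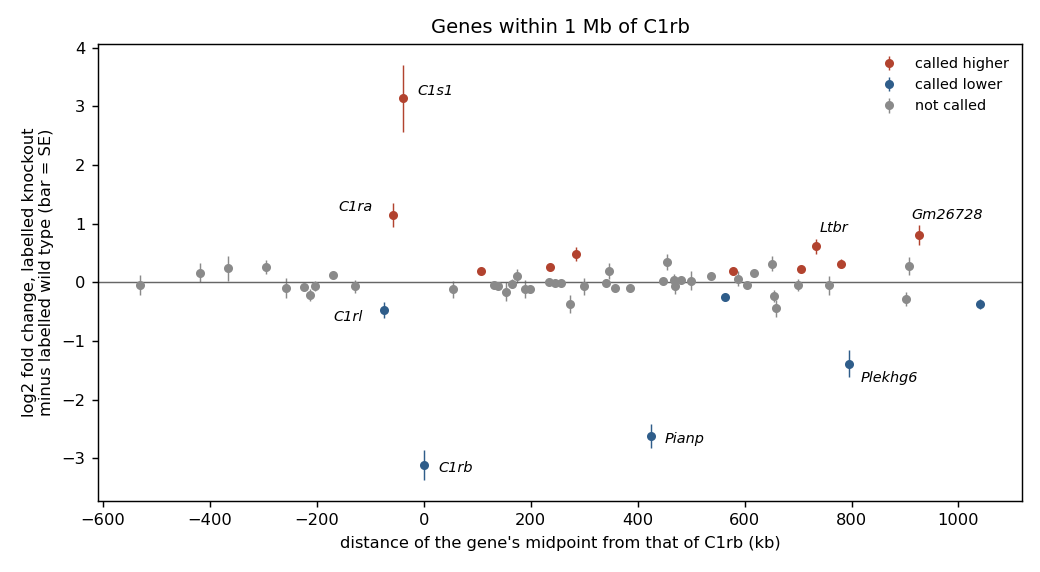
Log2 fold change (labelled knockout minus labelled wild type, bar = SE) of the genes tested within 1 Mb of C1rb against the distance of the gene's midpoint from that of C1rb in kb. C1rb and Pianp lie lowest and C1s1 highest, with most genes between them near 0.

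Among genes averaging at least 5 CPM, the 5 whose pattern over the 8 libraries was most like that of C1rb lay on other chromosomes. Genes with clone or predicted-gene names were left out. Pianp, the chromosome 6 neighbour described above, averaged 1.86 CPM and was outside this comparison, so a closer likeness near C1rb is not excluded. They were the kallikreins Klk1b21 and Klk1b24, Ttc22, the water channel gene Aqp2 and the ribosomal protein pseudogene Rps3a3, with root mean square differences from C1rb of 0.52, 0.69, 0.59, 0.66 and 0.73 log2 units, among 10885 genes averaging at least 5 CPM. Wild-type replicate 3 was not low in the kallikreins: Klk1b21 stood at 1.08, 1.06, 1.03 and 1.69 CPM in the libraries labelled knockout, against 11.4, 11.5, 13.4 and 9.98 CPM in those labelled wild type. It was the lowest wild-type library in Ttc22, at 8.21 CPM, and in Aqp2, at 19.0 CPM.

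The C1q chains, which bind antibody and other targets, did not follow the C1r genes. C1qa (ENSMUSG00000036887; chromosome 4, 136895917 to 136898803, minus strand) had 5.78, 8.55, 9.30 and 7.60 CPM in the libraries labelled knockout, against 9.58, 9.96, 8.21 and 11.3 CPM in those labelled wild type. C1qb (ENSMUSG00000036905) had 10.2, 12.1, 13.8 and 13.5 CPM in the libraries labelled knockout, against 10.9, 12.4, 11.2 and 12.5 CPM in those labelled wild type. C1qc (ENSMUSG00000036896) had 6.86, 8.47, 9.23 and 10.1 CPM in the libraries labelled knockout, against 8.78, 10.1, 7.85 and 9.22 CPM in those labelled wild type. The groups overlapped for each chain, and knockout replicate 1 was the lowest of the 8 libraries in all 3. The log2 differences were -0.32 (SE 0.13, limma adjusted p = 0.125) for C1qa, 0.07 (SE 0.10, adjusted p = 0.674) for C1qb and -0.06 (SE 0.12, adjusted p = 0.79) for C1qc. None was called in any of the 18 alternatives. Their sum was 28.9 ± 4.23 CPM under the knockout label and 30.5 ± 2.69 CPM under the wild-type label (SD, n = 4 each).

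Summed macrophage markers, set beside the C1q chains because macrophages are the main source of C1q, also overlapped between the groups. Among single markers the groups overlapped for all but Fcgr1. It averaged 0.383 ± 0.0841 CPM under the knockout label and 0.618 ± 0.113 CPM under the wild-type label, with no call. The 18 markers summed to 448 to 549 CPM under the knockout label and 488 to 532 CPM under the wild-type label, with a median log2 difference of -0.05. One of them was called, the chemokine receptor gene Cx3cr1, which was lower (2.87 ± 0.250 CPM under the knockout label and 4.28 ± 1.02 CPM under the wild-type label, limma adjusted p = 0.0483), and it was called in only 6 of 18 alternatives. Adgre1, which encodes the macrophage marker F4/80, averaged 3.62 ± 0.160 CPM under the knockout label and 3.30 ± 0.267 CPM under the wild-type label, with no call. Aif1 made up most of the marker sum, so the sum says little about the other markers. Aif1 stood at 336 to 397 CPM under the knockout label and 365 to 400 CPM under the wild-type label.

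C3 (ENSMUSG00000024164; chromosome 17, 57203970 to 57228136, minus strand), the protein on which the pathways converge, was lower under the knockout label. Its values were 14.7, 21.3, 18.6 and 8.09 CPM in the libraries labelled knockout, against 32.4, 21.3, 32.7 and 20.5 CPM in those labelled wild type. The groups overlapped, since knockout replicate 2 was about as high as wild-type replicates 2 and 4. The mean was 15.7 ± 5.73 CPM under the knockout label and 26.7 ± 6.74 CPM under the wild-type label (SD, n = 4 each), and C3 fell by 0.80 on the log2 scale (SE 0.24, limma adjusted p = 0.0325). The call was lost in 6 of 18 alternatives, DESeq2 (adjusted p = 0.103) and the fit with no variance trend (0.0995) among them. Leaving out knockout replicate 4 gave -0.52 (limma adjusted p = 0.0563), and leaving out knockout replicate 1 or wild-type replicate 1 or 3 gave -0.80, -0.70 and -0.69 (adjusted p = 0.0578, 0.0985 and 0.0971).

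Stromal markers were lower in the same libraries. The 12 fibroblast and stroma markers summed to 133 to 194 CPM under the knockout label, lowest in replicate 4, and to 231 to 277 CPM under the wild-type label. Of the 12, 8 were called lower and 1, Mfap5, higher, with a median log2 difference of -0.70. Over all genes tested, 8.32% were called lower and 8.62% higher. Col1a1, a collagen gene, averaged 5.94 ± 1.97 CPM under the knockout label and 15.6 ± 3.06 CPM under the wild-type label (limma adjusted p = 0.000551). Markers of other somatic cells were called lower more often than higher: 4 of 7 for Leydig cells with 1 higher, 2 of 8 for Sertoli cells, 4 of 6 for peritubular myoid cells, 2 of 7 for endothelium, 2 of 7 for adipocytes, and 3 of 5 for mesothelium with 1 higher. The epididymis list had 2 genes with a row, Rnase10 called higher and Spink8 called lower. The part of cell makeup in the values of C3 was not tested.

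C4b (ENSMUSG00000073418; chromosome 17, 34728380 to 34743882, minus strand), which encodes the C4 that C1s cuts, was slightly higher. Its values were 35.8, 37.4, 39.8 and 44.7 CPM in the libraries labelled knockout, against 33.6, 32.7, 30.2 and 35.0 CPM in those labelled wild type. The groups did not overlap, with knockout replicate 1 just above wild-type replicate 4. The mean was 39.4 ± 3.86 CPM under the knockout label and 32.9 ± 2.01 CPM under the wild-type label (SD, n = 4 each), 1.20-fold higher, and C4b rose by 0.26 on the log2 scale (SE 0.07, limma adjusted p = 0.0275). The call was lost in 6 of 18 alternatives: with no variance trend (adjusted p = 0.0728) and without knockout replicate 3 or 4 or wild-type replicate 1, 2 or 3 (0.0564, 0.0818, 0.0527, 0.0659 and 0.0843).

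Its copy C4a, known as sex-limited protein, went the other way. C4a had 7.41, 8.41, 9.07 and 8.09 CPM in the libraries labelled knockout, against 11.8, 12.8, 12.6 and 12.6 CPM in those labelled wild type, and fell by 0.57 on the log2 scale (SE 0.08, limma adjusted p = 0.000335). The groups stood well apart, and C4a was called in all 18 alternatives. C4a and C4b together gave 47.7 ± 4.10 CPM under the knockout label and 45.3 ± 1.94 CPM under the wild-type label, with overlapping ranges, and C4b made up 82.6% ± 1.49 of that sum under the knockout label and 72.5% ± 1.60 under the wild-type label (SD, n = 4 each). C2, the partner of C4 in the convertase, lies with C4a, C4b and Cfb within 169.9 kb of chromosome 17. It averaged 6.45 ± 1.58 CPM under the knockout label and 9.97 ± 1.03 CPM in the group labelled wild type, and fell by 0.62 on the log2 scale (limma adjusted p = 0.0111). Cfb, factor B of the alternative pathway, was below the filter on low values.

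Per kilobase of exon, which allows genes to be compared, the same 3 members ranked highest in both groups. C1qb had 11.4 ± 1.51 CPM per kb under the knockout label and 10.8 ± 0.721 under the wild-type label, and was the highest member in both, with a range above that of C1qa under the knockout label and overlapping it under the wild-type label. C1qa followed with 7.51 ± 1.46 and C4b with 6.92 ± 0.678 CPM per kb under the knockout label, where their ranges overlapped, and 9.39 ± 1.22 and 5.77 ± 0.352 CPM per kb under the wild-type label, where they did not. C1qc (4.49 ± 0.712) and C3 (3.05 ± 1.11) came next under the knockout label, followed by C1s1 (2.39 ± 0.437) and C1ra (2.10 ± 0.286). Adjacent genes among these 4 overlapped. C1rb was last at 0.287 ± 0.139 CPM per kb under the knockout label, with no overlap with C1ra. Under the wild-type label C3 (5.19 ± 1.31), C1qc (4.65 ± 0.475) and C1rb (4.15 ± 1.42) followed C4b. There C3 overlapped C1qc, and C1qc overlapped C1rb. C1ra (0.898 ± 0.404) and C1s1 (0.369 ± 0.738) were lowest and overlapped each other, and neither overlapped C1rb. Exon lengths are those of all exons in GENCODE M21, so a gene with unused exons is understated.

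Counting all members, 5 of 8 were called (3 higher, 2 lower), C1rb included; apart from C1rb the count was 4 of 7. Beside it stand 16.9% of all genes called either way, 8.62% higher and 8.32% lower, and since members were chosen with results in view nothing is read from the comparison. The groups did not overlap for C1rb, C1ra, C1s1 and C4b, beside 20.9% of all genes. The median log2 difference was 0.01 over the 8 members and -0.01 over all genes tested. The count of called members was 3 with DESeq2, with no variance trend, and without knockout replicate 4, wild-type replicate 1 or wild-type replicate 3.

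Other genes of the pathway were taken from lists of 52 complement genes, of which 44 had a row and 39 passed the filter. Of these 39, 10 were called, or 25.6% beside 16.9% of all genes, with 3 higher and 7 lower (8.62% and 8.32% of all genes) and a median log2 difference of -0.07. Among the recognition molecules and proteases 2 of 6 were called lower and none higher, C1rl above and Colec12. Colec12, a scavenger receptor with a collectin-like domain, averaged 1.64 ± 0.476 CPM under the knockout label and 2.86 ± 0.170 CPM in the group labelled wild type, and fell by 0.67 on the log2 scale (limma adjusted p = 0.00598). Of the 4 tested genes of C2, C4a and the alternative pathway, C2 and C4a were called lower and none was called higher.

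Of 6 terminal components, which form the membrane pore, C7 and C8b were called higher and none lower. This was 33.3% called beside 16.9% of all genes, in a small list. C7 had 66.2, 61.5, 57.8 and 69.8 CPM in the libraries labelled knockout, against 52.3, 45.0, 52.2 and 45.8 CPM in those labelled wild type, and rose by 0.38 on the log2 scale (SE 0.07, limma adjusted p = 0.00211). Its groups did not overlap, and it was called in all 18 alternatives. C8b, a chain of C8, averaged 19.9 ± 1.09 CPM under the knockout label and 16.9 ± 0.668 CPM under the wild-type label (log2 difference 0.23, limma adjusted p = 0.0296), and was called in 14 of 18 alternatives.

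Among 14 regulators 2 were called lower and none higher, or 14.3% called beside 16.9% of all genes. Cd55, the decay-accelerating factor that takes apart C3 convertases, averaged 22.5 ± 0.895 CPM under the knockout label and 30.0 ± 6.32 CPM under the wild-type label (log2 difference -0.38, limma adjusted p = 0.0318), and was called in 12 of 18 alternatives. Susd4, another regulator of the convertases, averaged 0.724 ± 0.216 CPM under the knockout label and 1.71 ± 0.303 CPM in the group labelled wild type, and fell by 0.86 on the log2 scale (limma adjusted p = 0.00162). Clusterin (Clu), which blocks pore formation, averaged 787 ± 56.7 CPM under the knockout label and 842 ± 36.8 CPM under the wild-type label, with no call (limma adjusted p = 0.272). Serping1, the inhibitor of C1r and C1s, averaged 18.3 ± 4.19 CPM under the knockout label and 23.4 ± 1.48 CPM under the wild-type label (log2 difference -0.37, limma adjusted p = 0.0756), with its lowest value, 12.3 CPM, in knockout replicate 4.

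Of 9 receptors and binding proteins 1 was called in each direction, or 22.2% called beside 16.9% of all genes. Itgax, the CD11c chain of complement receptor 4, averaged 2.12 ± 0.425 CPM under the knockout label and 0.797 ± 0.139 CPM in the group labelled wild type, and rose by 1.01 on the log2 scale (SE 0.14, limma adjusted p = 0.000285). Cr2, the receptor for C3 fragments on B cells, averaged 1.00 ± 0.310 CPM under the knockout label and 2.20 ± 0.377 CPM in the group labelled wild type, and fell by 0.86 on the log2 scale (limma adjusted p = 0.00247). Both were called in each of the 17 alternatives in which they were tested. The genes Masp2, Colec10, C4bp and Vsig4 were below the filter, and Mbl1, Mbl2, Fcnb, C9, Cfhr2, Cpn2, C5ar1 and C5ar2 had no row.

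**Figure D4:**
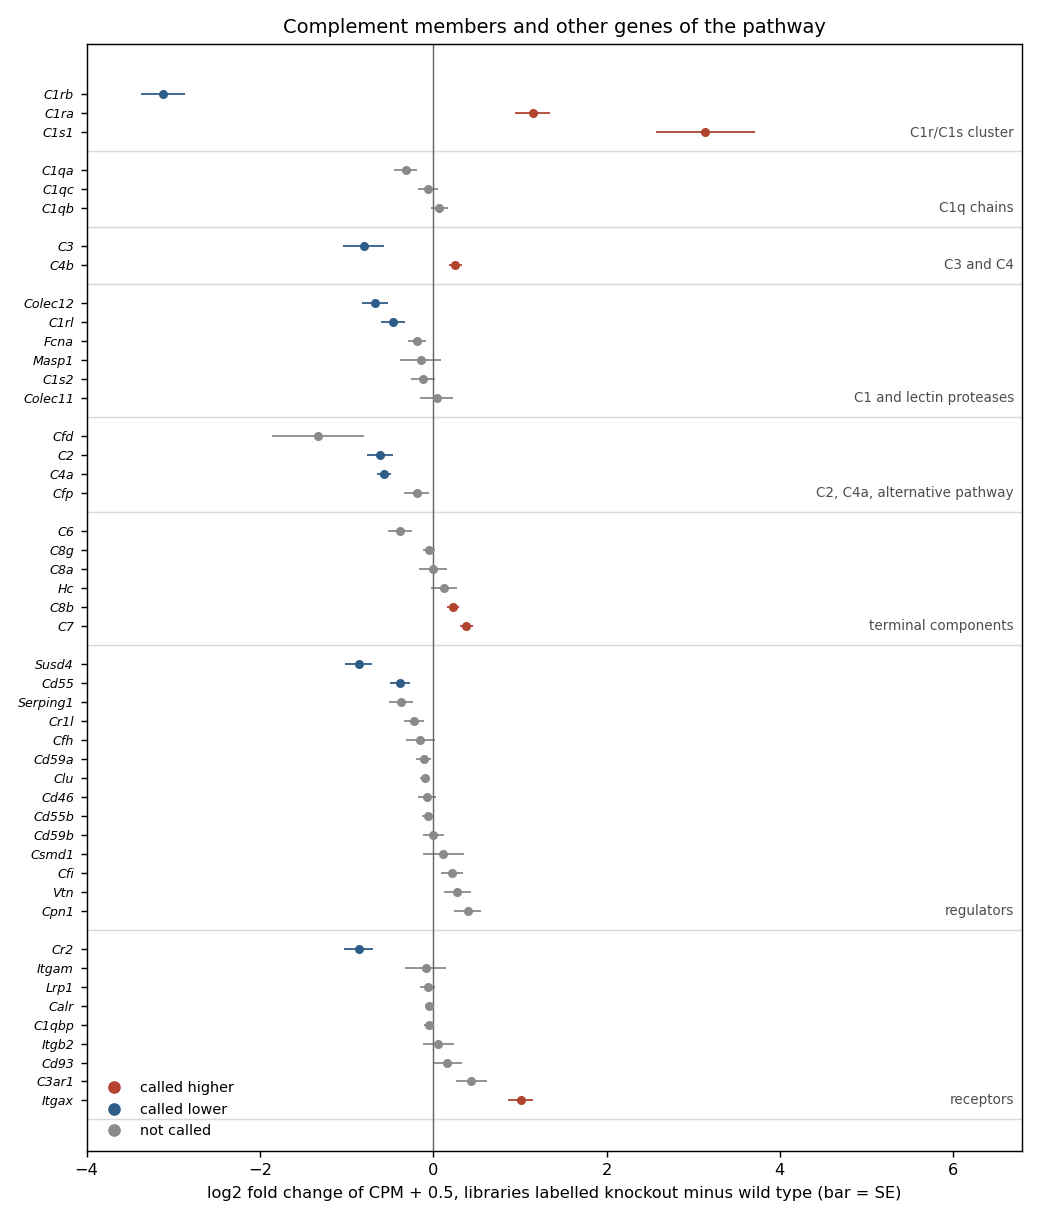
Log2 fold change of CPM + 0.5 (labelled knockout minus labelled wild type, bar = SE) of the 8 members and 39 tested pathway genes, grouped by role, with called genes in red (higher) and blue (lower); C1rb is the gene on which the set was chosen. C1rb and C1s1 lie farthest from 0 in opposite directions, and the 3 C1q chains lie near 0.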

How the data were processed

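Libraries were prepared with a TruSeq RNA kit from TRIzol-extracted, DNase-treated testis RNA, per the labels. Trimmomatic, Subread, featureCounts and the build GRCm39 (mm39) are named in the submitters' processing notes. Their versions, the strand setting and the handling of multi-mapping reads are not given in the sources. The authors deposited 1 matrix of 24988 genes by 8 libraries, a signal named CPM (scaled counts). Its columns were matched to the titles by number, taking control to mean wild type. Columns summed to 990244 to 1025489, so library size alone did not set the scale. Dividing by the smallest step gave whole reads for 100% of values within 0.01. A floor of 3 reads was 0.0786 to 0.0968 CPM. The planned test had assumed a plain CPM table and was applied unchanged.

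The test was limma 3.58.1 in R 4.3.3 with trended prior variance on log2(CPM + 0.5), a scale that shrinks differences of weakly expressed genes, for 22027 genes averaging at least 0.5 CPM, with Benjamini-Hochberg adjustment over all of them and no covariate. It was tested on simulated data with the same noise setting for every gene and library and no outlying library. That check does not cover a gene such as C1s1. Alternatives comprised quantile normalization, median ratio scaling, pseudocounts of 0.1 and 2, no filter, a filter at 2 CPM, no variance trend, a replicate block, edgeR 4.0.16 and DESeq2 1.42.0 on recovered reads, and each of the 8 libraries left out. Replicates within a group differed by more than sampling noise (chi-square per degree of freedom 4.73 or more).

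Symbols (24890 matched), positions, exon lengths and transcripts came from GENCODE M21 on GRCm38. This is not the build of the authors, so positions were not converted. Named genes were all 8 members, every called gene of the pathway lists with C1s2, C1rl and C4a, called neighbours within 1 Mb of C1rb and the 5 genes most like C1rb. Serping1, Clu, Cfb and Klk1b21's library values were added after values were seen. One gene of the pathway lists is not reported here and is left out of their counts. The members and lists were chosen with earlier results of these data known. Every log2 difference is the group labelled knockout minus the group labelled wild type.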

Additional observations from a re-analysis of the deposited data

Results flagged for a closer look

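C1s1 in wild-type replicate 3 stood at 4.62 CPM while the other 3 wild-type libraries were at 0, so its gap to the rest was the whole range of the group. C8b in knockout replicate 2 stood at 21.6 CPM, above the other 3 libraries of its label at 19.3 to 19.5 CPM. C8b in wild-type replicate 2 stood at 17.9 CPM, above the other 3 at 16.4 to 16.7 CPM. These 3 were found among 40 groups of 4 libraries tested for a distant sample (20 genes), where chance flags about 1 group in 20.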

How the results depend on the processing

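Of the 8 members, 5 were called in the main analysis, 3 with DESeq2, 3 with no variance trend, and 3 to 5 when one library was left out. The calls lost were C3 and C4b, and with DESeq2 C1s1 and C3; the cause was not tested. C1ra was called, and no C1q chain was, under all 18 alternatives. The log2 difference of C1rb was -3.85 with DESeq2, -3.84 with edgeR, -3.71 with a pseudocount of 0.1 and -2.12 with 2 CPM. No member with a call changed direction under any of them. The count of called pathway genes was 10 in the main analysis and 7 to 12 in the alternatives, and that over all genes 3731 and 2788 to 4073. The other scalings moved the median of all genes by less than 0.01 on the log2 scale. The same replicate numbers did not pair the libraries: the correlation of their deviations from the group means lay between -0.031 and 0.039. With the replicate block 3446 genes, 5 members and 9 pathway genes were called. Depth limits the values of C1rb under the knockout label, 9 to 38 reads, and C1s1 under the wild-type label, where 3 libraries had no read. Shared sequence limits all 4 genes with a close copy.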
